A study of Mus musculus with 36 samples.

Results

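Kidney cortex of Balb/c mice that received 14 MBq of 177Lu-octreotate was compared with kidney cortex at 0 MBq, both 24 h after injection. The comparison used 6 of the 36 arrays of the series, 3 titled as cortex at 14 MBq and 3 titled as cortex at 0 MBq. It covered the 10803 genes, 851 of them probes without a gene symbol, that were detected on 3 or more of the 18 cortex arrays. The other arrays hold cortex at 1.3, 3.6, 45 and 140 MBq and kidney medulla at the same 6 activities, with 3 arrays in each group. The labels do not say whether the 0 MBq mice received a mock injection, whether the arrays of a group come from separate animals, or at which hour of the day tissue was taken. The p-values below therefore measure only the spread between these arrays.

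177Lu-octreotate is a somatostatin analogue that carries a beta-emitting lutetium isotope and binds the somatostatin receptor Sstr2 on tumour cells. The kidney filters the peptide and the proximal tubule takes it up again, partly through the endocytic receptor megalin, encoded by Lrp2. Ionising radiation activates the transcription factor p53, which switches on the cell cycle inhibitor Cdkn1a and other genes, and the kidney also keeps its own circadian clock, in which Clock and Arntl drive the Per and Cry genes that in turn repress them.

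Values are normalised log2 intensities of Illumina bead array probes, and a fold or log2 difference is 14 MBq against 0 MBq with limma's standard error after ±. A gene is said to have risen or fallen where its p-value, adjusted by Benjamini and Hochberg's method over all 10803 genes, was under 0.05. The median raw signal of the 6 arrays ranged from 112 to 180, lowest on 0 MBq replicate 1, and 48.0% to 51.2% of the 25697 probes were detected. The tubule was well represented on all 6 arrays: the phosphate transporter Slc34a1 of the proximal tubule lay between 14.49 and 15.04 and uromodulin (Umod) of the thick ascending limb between 14.39 and 14.89. Sstr2, read by 1 probe, was detected on 0 of the 36 arrays. The Lrp2 probe was dim, at 6.57, 5.63 and 5.58 at 14 MBq and 5.83, 6.05 and 6.60 at 0 MBq, and its difference of -0.23 ± 0.30 had an adjusted p of 0.764.

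Several arrays stood apart. Adrenal markers marked 14 MBq replicate 3, where their mean level, relative to the 18 cortex arrays, was 3.07 against at most 0.26 on any other cortex array. The steroid 11-beta-hydroxylase Cyp11b1 was at 13.44 on that array and between 4.75 and 5.10 on the other 5, the 21-hydroxylase Cyp21a1 at 11.26, the cholesterol carrier Star at 9.91 and the corticotropin receptor Mc2r at 10.13. Of 18 adrenal markers on the array platform 13 were detected there, 6 of them on no other cortex array, while the chromaffin markers Dbh, Th and Chga were undetected on all 18. Of 2 other chromaffin markers, Chgb was detected on that array alone, at 7.08, and Pnmt on 4 cortex arrays, with 5.85 on that one. The summed intensity of the 5 adrenal markers that were tested was 4915 on that array and between 213 and 288 on the other 5. Adipocyte markers were also high on it, with a level of 2.88, and on 0 MBq replicate 1, with 1.02, against -1.55 to -0.63 on the other 4, and adiponectin (Adipoq), named here after its values were seen, was at 13.30 and 12.14 on these 2 arrays and between 5.17 and 8.80 on the others. Of the 6 arrays, 0 MBq replicate 1 had the highest levels of the macrophage, lymphocyte, neutrophil, antigen presentation and interferon lists and the lowest of the proximal tubule list (-1.09). The differences below were recomputed without these arrays, and with the adrenal level as a covariate.

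Of the 10803 genes 148 differed, which is 1.37%: 58 rose (0.537%) and 90 fell (0.833%). All 3 arrays of one group lay beyond all 3 of the other for 7.28% of the genes upward and 8.37% downward. The same held for 57 of the 58 risen and 89 of the 90 fallen genes. As the calls and this separation come from the same values, it is a description and no separate support. Of the risen genes 51 were detected on all 6 arrays, and of the fallen genes 50, with 15 of the fallen genes undetected on every array at 14 MBq. The number of calls depended on single arrays. It dropped to 28 without 0 MBq replicate 1, 30 without 0 MBq replicate 2, 24 without 14 MBq replicate 1 and 33 without 14 MBq replicate 2, and it grew to 345 without 0 MBq replicate 3 and 348 without 14 MBq replicate 3. A fit to the 6 arrays alone called 0 genes with limma, with 1119 at an unadjusted p under 0.05, against 1686 in the fit with all 18 cortex arrays, which shares the estimate of spread over 6 groups.

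**Figure D1:**
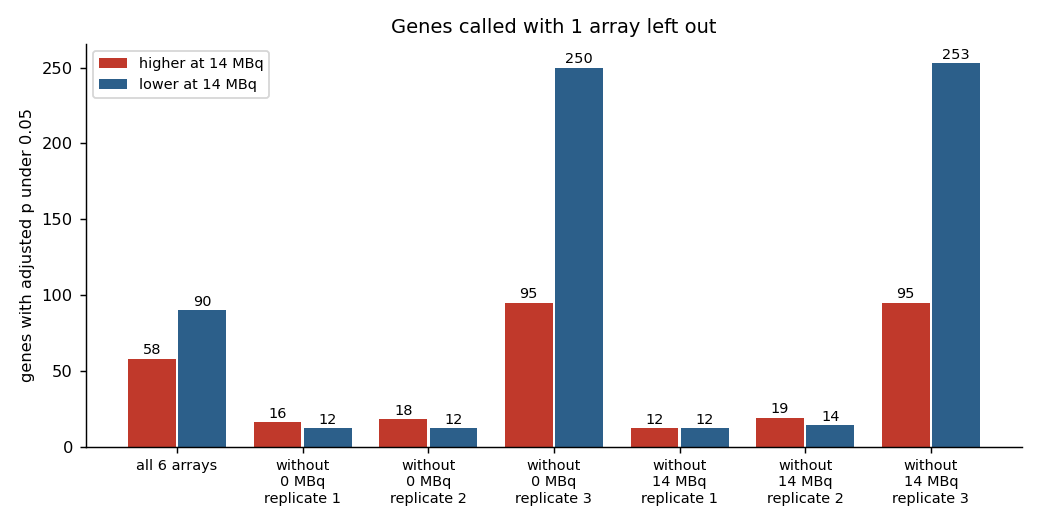
Genes with an adjusted p under 0.05 (vertical axis, number of genes) with all 6 arrays and with each array left out in turn; red bars are genes higher at 14 MBq and blue bars genes lower. The number of lower genes moves from 12 to 253, and that of higher genes from 12 to 95.

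The calls that held whichever of the 6 arrays was left out numbered 16, with 11 up and 5 down. Named here after their values were seen, they were the clock genes Per1, Per2 and Ciart, the p53 targets Ccng1 and Ephx1, the lipase inhibitor Angptl4, the mitochondrial carrier Slc25a42, the kinase Pim3, the exocyst subunit Exoc4, the carboxylesterase Ces2g and the PDZ and LIM domain scaffold Pdlim5 among the risen, and Nsd1, Wdfy3, Pdgfb, Cntln and an unnamed probe among the fallen. Nsd1, a histone H3 methyltransferase, had the smallest adjusted p of all genes, 1.84e-05. Its probe read 5.89, 5.67 and 5.92 at 14 MBq and 7.97, 7.60 and 7.77 at 0 MBq, a fall of 3.88-fold with arrays of a group within 0.4 of each other, and it was detected on 2 of the 3 arrays at 14 MBq. A second Nsd1 probe did not show this fall (-0.28 ± 0.32, adjusted p = 0.739). Further probes also differed from the one used for Wdfy3 (-0.006), Cntln (0.27), Ces2g (0.18) and Pdlim5 (0.71 and 0.10), none of them called, whereas the further probes of Per1, Per2, Ciart and Ccng1 were called higher. Pdgfb, a growth factor ligand for pericytes that endothelial cells make, read 8.14, 8.37 and 7.86 at 14 MBq and 9.41, 10.06 and 9.22 at 0 MBq (adjusted p = 0.00619). Pim3 read 13.11, 13.44 and 13.12 at 14 MBq and 12.30, 11.73 and 12.02 at 0 MBq (adjusted p = 0.00571).

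The circadian clock genes changed in both directions. Of 16 measured members 7 rose and 2 fell, against the 1.37% of all genes called, and the median difference of the list was 0.78 against -0.003 over all genes. The repressors Per1, Per2, Per3, Cry2 and Ciart were higher at 14 MBq. Per1 read 11.23, 11.42 and 10.71 at 14 MBq and 9.27, 9.58 and 8.50 at 0 MBq, a rise of 2.00 ± 0.27 on the log2 scale (adjusted p = 0.00270). Per2 read 11.66, 11.43 and 11.52 against 10.09, 10.58 and 10.01, a rise of 2.48-fold (adjusted p = 0.00204). Ciart, a repressor of Clock and Arntl, read 9.32, 9.05 and 8.07 against 6.18, 7.17 and 6.24, a rise of 4.87-fold (adjusted p = 0.00410). In these 3 genes the lowest array at 14 MBq lay above the highest at 0 MBq, as in 57 of the 58 risen genes. Cry2, the partner of the Per proteins, rose 2.22-fold (adjusted p = 0.0198) and Per3 2.45-fold (adjusted p = 0.0290). Dbp, an output transcription factor that binds the D-box, read 13.37, 13.59 and 13.44 against 10.61, 12.77 and 12.32 (2.97-fold, adjusted p = 0.0438), with 0 MBq replicate 1 far below the other controls. Without that array the difference of Dbp was 0.92 in place of 1.57, and its call ended without any 1 of the 3 arrays at 14 MBq. Noct, a rhythmic phosphatase that acts on NADPH, rose 4.67-fold (adjusted p = 0.0451).

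The clock genes that fell were Arntl and Nfil3. Arntl, the partner of Clock, was detected on all 3 arrays at 0 MBq, at 8.50, 6.44 and 7.38, and on none at 14 MBq, where its probe read 5.58, 4.81 and 5.42. It was at least 3.16-fold lower (adjusted p = 0.0122). Nfil3, which competes with Dbp for the D-box, read 7.52, 7.13 and 7.40 against 8.98, 8.77 and 8.23, a fall of 2.47-fold (adjusted p = 0.0198). Clock itself read 9.51, 9.40 and 9.87 against 10.28, 10.27 and 10.44 without passing the test (-0.74 ± 0.20, adjusted p = 0.0784), and Rora read 10.37, 10.18 and 10.47 against 9.69, 9.92 and 9.82 (0.53 ± 0.14, adjusted p = 0.0751). Without 0 MBq replicate 1 the list had 4 rises and 1 fall, without 14 MBq replicate 2 it had 3 rises and 0 falls, without 14 MBq replicate 1 it had 3 and 1, and without 0 MBq replicate 2 it had 5 and 1. Leaving out 14 MBq replicate 3 gave 7 rises and 3 falls.

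The promoters of the called clock genes are shown because the loop acts through 2 short motifs, the E-box CACGTG bound by Clock and Arntl and the D-box TTATGNAA bound by Dbp and Nfil3. RefSeq promoter windows of GRCm38.p6, which reach from before to just after a transcription start, were matched by symbol for 14 of the 17 called genes of the clock, fatty acid oxidation, glucocorticoid and p53 lists, and both strands were searched. Per2, Angptl4 and Zmat3 are named only. Among the 8 matched clock genes 2 held an E-box and 3 a D-box, while 7.15% and 3.38% of all 32851 promoters did. Ciart holds 3 E-boxes, beginning 116, 58 and 44 bases before the start, Per1 an E-box at 166 and a D-box at 24, Per3 D-boxes at 205 and 158, and Noct a D-box at 94. Both motifs are in capitals, and none of the matches overlap each other. The Ciart promoter is chr3:95882179-95882478 on the minus strand, that of Per1 chr11:69098699-69098998 on the plus strand, that of Per3 chr4:151044616-151044915 on the minus strand and that of Noct chr3:51224197-51224496 on the plus strand.
Ciart: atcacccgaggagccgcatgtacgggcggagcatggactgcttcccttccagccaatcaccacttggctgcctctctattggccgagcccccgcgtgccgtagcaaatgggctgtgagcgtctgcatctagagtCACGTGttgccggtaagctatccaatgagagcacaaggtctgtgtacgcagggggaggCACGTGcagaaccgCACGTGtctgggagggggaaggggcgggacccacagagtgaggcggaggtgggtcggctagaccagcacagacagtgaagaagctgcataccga
Per1: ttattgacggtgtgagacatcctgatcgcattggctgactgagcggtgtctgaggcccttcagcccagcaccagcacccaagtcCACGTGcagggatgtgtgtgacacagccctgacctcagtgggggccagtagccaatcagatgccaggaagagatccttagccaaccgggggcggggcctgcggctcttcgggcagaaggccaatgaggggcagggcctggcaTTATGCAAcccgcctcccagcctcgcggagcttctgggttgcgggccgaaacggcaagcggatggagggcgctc
Per3: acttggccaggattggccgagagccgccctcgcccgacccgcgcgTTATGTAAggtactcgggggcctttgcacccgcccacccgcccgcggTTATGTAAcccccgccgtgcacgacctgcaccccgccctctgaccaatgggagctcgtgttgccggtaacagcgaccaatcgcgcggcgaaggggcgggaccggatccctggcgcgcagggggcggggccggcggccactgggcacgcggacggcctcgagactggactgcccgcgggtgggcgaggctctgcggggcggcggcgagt
Noct: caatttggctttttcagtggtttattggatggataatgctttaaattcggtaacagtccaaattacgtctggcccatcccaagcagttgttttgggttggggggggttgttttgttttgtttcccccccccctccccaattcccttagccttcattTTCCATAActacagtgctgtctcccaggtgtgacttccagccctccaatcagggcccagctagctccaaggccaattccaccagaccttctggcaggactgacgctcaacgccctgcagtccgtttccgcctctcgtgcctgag

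A second Per1 start, and the promoters of Cry2, Dbp, Nfil3 and Arntl, held neither motif in this window. The DR1 element, a site type for Ppara, the DR3 element, a site type for the vitamin D receptor, and paired glucocorticoid half-sites were found in none of the 14 matched genes, and 0.0396%, 0.00609% and 6.85% of all promoters held them.

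Some genes of fatty acid use rose. Of 26 measured members of the fatty acid oxidation and PPARA list 3 rose and 0 fell, 24 had a difference above 0, and the median was 0.84. Over all genes 0.537% rose, and 5362 of 10803 had a difference above 0. Angptl4, a secreted inhibitor of lipoprotein lipase and a target of Ppara and of the glucocorticoid receptor, read 12.65, 11.90 and 12.24 at 14 MBq and 9.82, 8.85 and 10.02 at 0 MBq, a rise of 6.50-fold (2.70 ± 0.35, adjusted p = 0.00221). Slc25a20, the carnitine-acylcarnitine carrier of the mitochondrial membrane, read 12.27, 11.66 and 12.39 against 10.95, 10.04 and 11.10, a rise of 2.66-fold (adjusted p = 0.0185). Ppara, the nuclear receptor that drives fatty acid oxidation, read 9.26, 8.62 and 8.24 against 6.65, 7.48 and 7.72, a rise of 2.69-fold (adjusted p = 0.0392). The groups lay apart in all 3, as in 57 of the 58 risen genes. The lipid droplet genes Plin2 (1.87 ± 0.54, adjusted p = 0.100) and G0s2 (1.30 ± 0.38, adjusted p = 0.104) did not pass the test. The list had 1 rise without 0 MBq replicate 2 or without 14 MBq replicate 1, and 4 without 0 MBq replicate 3.

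Pck1, the key enzyme of gluconeogenesis in liver and kidney, read 11.68, 11.92 and 12.39 at 14 MBq and 7.52, 9.80 and 9.37 at 0 MBq, a rise of 8.58-fold (3.10 ± 0.69, adjusted p = 0.0396). It was the 1 called member of 15 in the gluconeogenesis and ammonia formation list, against 0.537% of all genes called higher. 0 MBq replicate 1 was far the lowest, and without it the difference of Pck1 was 2.41 (adjusted p = 0.182). The call also ended without any other single array except 0 MBq replicate 3. The mitochondrial carriers Slc25a25, for ATP-Mg and phosphate, and Slc25a42, for coenzyme A, rose 5.03-fold (adjusted p = 0.00932) and 2.92-fold (adjusted p = 0.00410). Lpin1, a phosphatidate phosphatase and coactivator of Ppara, rose 2.87-fold (9.39, 9.09 and 9.29 against 7.98, 7.57 and 7.66, adjusted p = 0.0228). Dgat2, the last enzyme of triglyceride synthesis, stood in the adipocyte list and was its 1 called member of 19. It read 12.95, 12.74 and 13.43 against 11.78, 11.64 and 11.74 (2.50-fold, adjusted p = 0.0185). The 3 arrays at 14 MBq lay above the 3 at 0 MBq, as in 57 of the 58 risen genes, with replicate 3 highest.

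Cyp24a1, the 24-hydroxylase that inactivates vitamin D hormone in the proximal tubule, had the largest rise of all called genes. It read 13.19, 12.65 and 12.87 at 14 MBq and 7.57, 10.95 and 10.43 at 0 MBq, a rise of 9.55-fold (3.26 ± 0.68, adjusted p = 0.0306), and 0 MBq replicate 1 lay far below the other controls. Leaving that array out reduced the difference of Cyp24a1 to 2.22 and ended the call, which also ended without 14 MBq replicate 1 or 14 MBq replicate 2. It was the 1 called member of 21 in the vitamin D, phosphate and calcium list, whose median was 0.06. Over all genes 0.537% rose. The vitamin D receptor Vdr read 12.45, 11.55 and 11.37 against 11.16, 10.83 and 11.17 (0.73 ± 0.30, adjusted p = 0.243). S100g, a vitamin D-dependent calcium-binding protein of the distal tubule, read 9.10, 10.58 and 10.08 against 7.47, 7.03 and 8.17 (2.36 ± 0.82, adjusted p = 0.167), with no overlap but no call.

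Of 31 measured p53 targets, with a median of 0.40, 5 rose and 0 fell, against 0.537% of all genes risen. Ccng1, an early p53 target that modulates Mdm2, was the tightest of them, at 12.76, 12.71 and 12.90 at 14 MBq and 11.57, 11.51 and 11.62 at 0 MBq, a rise of 2.34-fold (1.23 ± 0.14, adjusted p = 9.61e-04). Cdkn1a read 10.07, 10.45 and 9.68 against 8.86, 8.40 and 7.38, a rise of 3.61-fold (1.85 ± 0.35, adjusted p = 0.0198). Ephx1, an epoxide hydrolase that is also the 1 called member of 19 in the NRF2 list, read 11.55, 11.20 and 11.08 against 9.91, 9.31 and 9.56, a rise of 3.21-fold (adjusted p = 0.00314). In all 3 genes the groups lay apart, as in 57 of the 58 risen genes. Zmat3, an RNA-binding p53 target, rose 2.34-fold (adjusted p = 0.0278) and the stress kinase Plk3 rose 2.55-fold (8.92 to 9.95 against 7.68 to 8.56, adjusted p = 0.0353). Plk2 (1.09 ± 0.28, adjusted p = 0.0672) and the translesion polymerase Polk (0.70 ± 0.19, adjusted p = 0.0806) did not pass. The list held 2 rises without 0 MBq replicate 2, 14 MBq replicate 1 or 14 MBq replicate 2, 3 without 0 MBq replicate 1, and 6 or 7 without replicate 3 of either group. The call of Cdkn1a ended without 0 MBq replicate 2 or either of the first 2 arrays at 14 MBq, with an adjusted p of at most 0.0902.

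The glucocorticoid-responsive list had 2 rises among 19 measured members, Per1 and Angptl4, which other lists also hold, and a median of 0.53. Over all genes 0.537% rose. Sgk1, the aldosterone- and glucocorticoid-induced kinase of the distal nephron, read 12.77, 12.61 and 12.67 against 12.12, 11.71 and 11.56 (0.89 ± 0.22, adjusted p = 0.0608). Of the remaining large rises, Cox6b2, a subunit isoform of cytochrome oxidase, rose 3.11-fold, the membrane progestin receptor Paqr7 3.08-fold and Auts2 3.14-fold, with adjusted p between 0.0226 and 0.0451. Auts2 was detected on 1 of 3 arrays at 0 MBq, and its other probe did not rise (-0.12, adjusted p = 0.857).

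**Figure D2:**
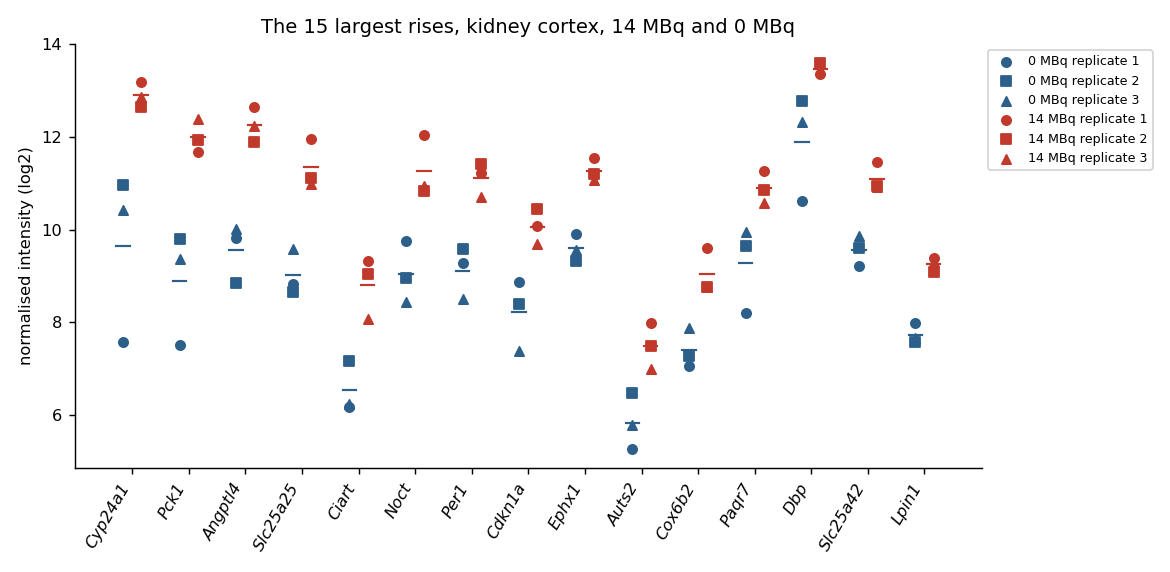
Normalised log2 intensity (vertical axis) of the 15 genes with the largest rises, by array; blue is 0 MBq, red is 14 MBq, symbols mark the replicate and short lines the mean of 3 arrays. Only called genes whose 3 arrays at 14 MBq all lie above the 3 at 0 MBq were eligible, so this separation is not a result. 0 MBq replicate 1 lies well below the other controls for Cyp24a1, Pck1, Paqr7 and Dbp.

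Some markers of immune cells fell. Of 7 measured neutrophil markers 3 fell and 0 rose, with a median of -1.94, and of 17 macrophage and dendritic markers 3 fell and 0 rose, with a median of -1.53, against a downward share of 0.833% over all genes. In bulk tissue, fewer cells of a type and less RNA per cell cannot be told apart. S100a8, a calprotectin subunit that neutrophils and monocytes carry, was detected on all 3 arrays at 0 MBq, at 10.15, 9.07 and 7.30, and on none at 14 MBq (5.08, 4.82 and 5.32). The bound on its fall was 8.34-fold or more (adjusted p = 0.0198). Its partner S100a9 read 5.03, 4.97 and 6.01 against 8.85, 8.51 and 6.91, a fall of 6.74-fold (adjusted p = 0.0321). The cytokine Il1b read 5.84, 5.32 and 5.06 against 8.27, 7.25 and 6.53, a fall of 3.84-fold (adjusted p = 0.0226). In these 3 genes 0 MBq replicate 3 was the control nearest to the treated arrays, and S100a9 and Il1b were detected on 1 of the 3 arrays at 14 MBq. Of 14 neutrophil markers on the platform 7 were not tested, and Ngp, Mmp8, Elane and Mpo were undetected on every cortex array.

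Among macrophage genes, Ly86, a partner of the Toll-like receptor relative Cd180, read 5.31, 4.94 and 5.88 at 14 MBq and 8.91, 7.98 and 6.91 at 0 MBq, a fall of 5.90-fold (adjusted p = 0.0198). Ly86 was detected on 1 of the 3 arrays at 14 MBq, as were Ciita, Ch25h and Ptpro below, so these folds are set against readings near background. Cd52, a leukocyte surface peptide, read 6.96, 7.13 and 7.57 against 10.63, 9.66 and 8.42, a fall of 5.09-fold (adjusted p = 0.0306). Laptm5, a lysosomal protein of blood cells, read 9.70, 9.68 and 10.60 against 12.78, 11.84 and 10.95, a fall of 3.65-fold (adjusted p = 0.0375). In all 3 genes the controls were widely spread, with replicate 1 highest and replicate 3 lowest. The complement gene C1qb (-2.04 ± 0.52, adjusted p = 0.0697) and the macrophage marker Adgre1 (-2.09 ± 0.54, adjusted p = 0.0718) had lower levels on all 3 treated arrays without passing. The summed intensity of the macrophage list was 4225, 3208 and 8517 at 14 MBq and 30036, 13289 and 7192 at 0 MBq, so that the groups overlap. No neutrophil or macrophage marker was called without 0 MBq replicate 1, 0 MBq replicate 2, 14 MBq replicate 1 or 14 MBq replicate 2, while 7 macrophage markers were without replicate 3 of either group. Over all genes 250 of 10778 were called lower without 0 MBq replicate 3 and 253 of 10717 without 14 MBq replicate 3. Without both 0 MBq replicate 1 and 14 MBq replicate 3, the arrays that stood apart, 3 macrophage and 0 neutrophil markers were called.

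Ciita, the master activator of MHC class II genes, read 5.03, 6.53 and 5.36 at 14 MBq and 9.53, 8.51 and 7.23 at 0 MBq, a fall of 6.88-fold (-2.78 ± 0.63, adjusted p = 0.0437), and was the 1 called member of 19 in the antigen presentation list. The class II gene H2-Eb1 read 9.25, 10.80 and 10.08 against 13.39, 12.51 and 10.45 (-2.07 ± 0.71, adjusted p = 0.160), and its groups overlapped. All 19 members had a difference below 0, with a median of -1.49. Of 27 interferon-stimulated genes 0 passed the test, and 26 had a difference below 0, with a median of -1.06. A difference below 0 was found for 5441 of all 10803 genes. The antiviral gene Rsad2 read 8.95, 8.34 and 8.94 against 10.96, 9.89 and 9.71 (adjusted p = 0.0589) and the interferon-induced GTPase Tgtp1 read 4.81, 6.71 and 4.83 against 10.70, 8.50 and 6.64 (-3.16 ± 0.84, adjusted p = 0.0784). Without 0 MBq replicate 3, the control with the lowest interferon level, 11 of the 27 interferon genes and 8 of the 19 antigen presentation genes were called lower. That fit called 250 of 10778 genes lower. The monocyte chemokine Ccl12 fell 4.13-fold (5.26, 6.18 and 5.77 against 7.97, 8.11 and 7.28, adjusted p = 0.0226), and with Il1b made 2 called of 20 in the cytokine list. Ctsw, a cathepsin of cytotoxic lymphocytes, was the 1 called of 9 lymphocyte markers (adjusted p = 0.0396). It was undetected on all 3 treated arrays, and the bound on its fall was 1.70-fold or more. Large falls outside these lists were those of the sterol hydroxylase Ch25h (6.32-fold), the leukocyte proteins Abi3 (3.89-fold), Slamf9 (3.77-fold), Alox5ap (3.77-fold) and Arhgap30 (3.67-fold), and the binding protein of insulin-like growth factors Igfbp3 (3.71-fold), with adjusted p between 0.0198 and 0.0438.

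**Figure D3:**
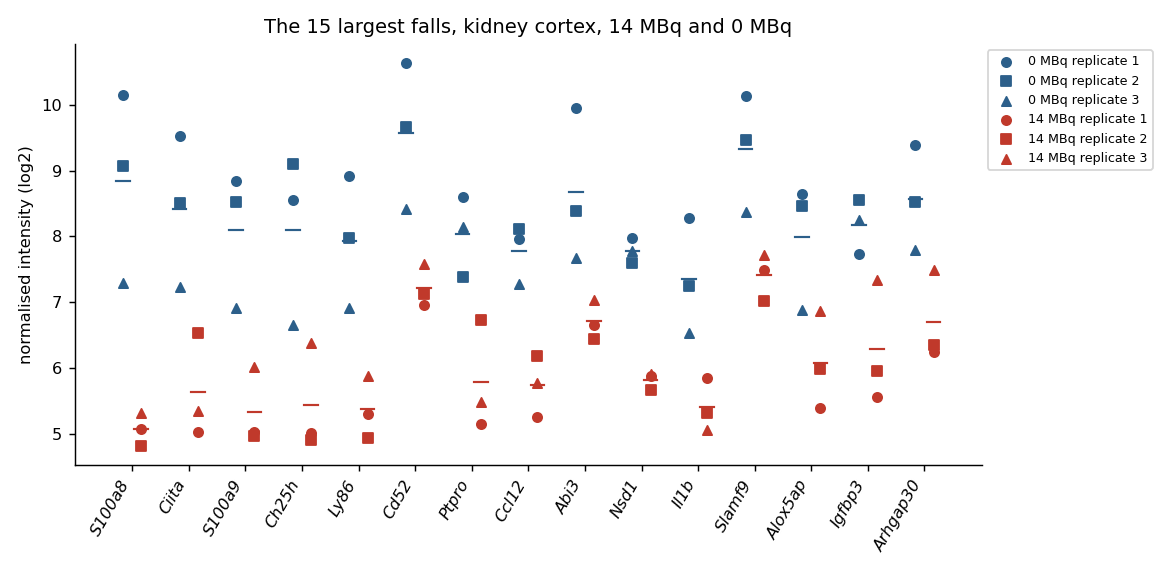
Normalised log2 intensity (vertical axis) of the 15 genes with the largest falls, by array; blue is 0 MBq, red is 14 MBq, symbols mark the replicate and short lines the mean of 3 arrays. Only called genes whose 3 arrays at 14 MBq all lie below the 3 at 0 MBq were eligible, so this separation is not a result. For most genes the 0 MBq arrays are widely spread with replicate 3 lowest, while the 3 controls of Nsd1 lie within 0.4 of each other.

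A few endothelial, podocyte and matrix genes fell. Of 20 endothelial markers 2 fell and 0 rose, 19 had a difference below 0, and the median was -0.998. Over all genes 0.833% fell, and 5441 of 10803 had a difference below 0. Plvap, the diaphragm protein of fenestrated capillaries, read 8.56, 8.99 and 9.67 at 14 MBq and 10.33, 10.68 and 10.31 at 0 MBq, a fall of 2.58-fold (adjusted p = 0.0396). Egfl7, a secreted endothelial factor, read 9.20, 9.89 and 10.70 against 11.71, 11.07 and 10.92, a fall of 2.47-fold (adjusted p = 0.0396). Of its other probes 1 fell (-1.52, adjusted p = 0.0207) and 1 did not (0.12, adjusted p = 0.860). In both genes 14 MBq replicate 3 lay nearest to the controls. Without that array 12 of the 20 endothelial markers were called lower, against 253 of 10717 over all genes. Without it and 0 MBq replicate 1 there were 7, against 115 of 10590 over all genes. In contrast, 0 were called without 0 MBq replicate 1 alone, 0 MBq replicate 2, 14 MBq replicate 1 or 14 MBq replicate 2. The summed intensity of the list was 4738, 7409 and 13460 at 14 MBq and 21230, 15229 and 14618 at 0 MBq.

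Ptpro, a receptor phosphatase of podocyte foot processes, read 5.16, 6.74 and 5.49 against 8.60, 7.38 and 8.14, a fall of 4.74-fold (adjusted p = 0.0438), and was the 1 called of 6 podocyte markers, all of which had a difference below 0. The podocyte regulator Wt1 read 7.34, 8.42 and 10.03 against 10.12, 10.03 and 10.07 (adjusted p = 0.118), so that 14 MBq replicate 3 was level with the controls. Pdgfrb, the pericyte and mesangial receptor for the Pdgfb ligand, read 5.11, 5.88 and 7.06 against 7.76, 8.29 and 7.15, a fall of 3.27-fold (adjusted p = 0.0367). Among matrix genes 2 of 22 fell, the proteoglycan Bgn by 2.08-fold (adjusted p = 0.0392) and Fbln1 by 3.88-fold (adjusted p = 0.0451), and for Fbln1 the groups overlapped, with 8.65 on 14 MBq replicate 3 and 8.59 on 0 MBq replicate 3, and its other probe was not called (-0.51, adjusted p = 0.390). Leaving out 14 MBq replicate 3, on which the fibroblast list was highest (1.21), gave 10 falls among the 22 matrix genes and leaving out 0 MBq replicate 3 gave 4, whereas 0 were called without any 1 of the other 4 arrays. Over all genes 253 of 10717 were called lower without 14 MBq replicate 3 and 250 of 10778 without 0 MBq replicate 3. The part of the adrenal, adipocyte and fibroblast signal of 14 MBq replicate 3 in these differences was not tested beyond leaving it out and a fit with the adrenal level as a covariate. In that fit 13 endothelial and 11 matrix genes were called lower, against 307 of all 10803 genes.

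**Figure D4:**
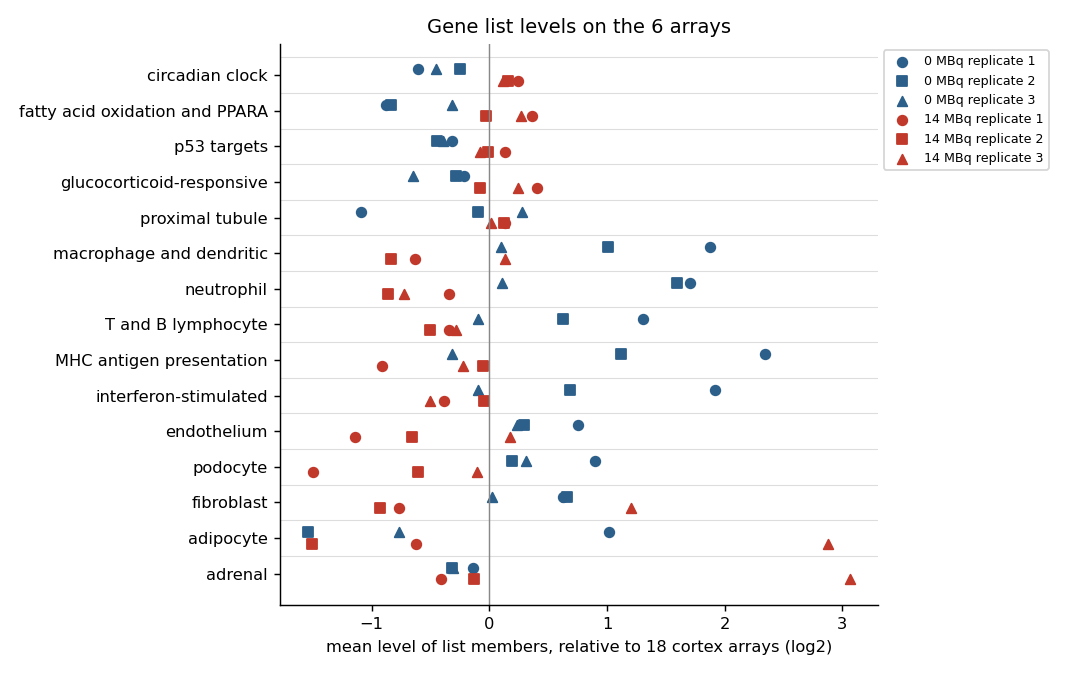
Mean log2 level of the measured members of 15 gene lists on each of the 6 arrays (horizontal axis, relative to the mean of the 18 cortex arrays); blue is 0 MBq and red 14 MBq, with symbols for the replicate. The clock, fatty acid, p53, glucocorticoid, neutrophil, lymphocyte, endothelium and podocyte lists separate the groups on every array. The immune lists spread widely over the controls, and the groups overlap in the macrophage, antigen presentation and interferon lists. The adrenal and adipocyte lists are high on 14 MBq replicate 3.

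No marker of a nephron segment was called in the main fit of 18 cortex arrays. Of 20 proximal tubule, 8 thick ascending limb, 9 distal and 14 collecting duct markers, 0 were called by limma, with medians of 0.43, -0.16, 0.10 and -0.22. With the deposited normalisation 1 thick ascending limb marker was called lower. The fit of 36 arrays called 1 thick ascending limb and 1 proximal tubule marker lower, and the fit with the adrenal covariate 1 proximal tubule marker higher. The proximal tubule median was -0.06 without 0 MBq replicate 1, the distal median -0.02 without 0 MBq replicate 2 and the collecting duct median 0.01 without 14 MBq replicate 3, each of the opposite sign. The smallest p-values among them belonged to the water channel Aqp1 (13.59, 13.48 and 13.31 against 13.94, 13.92 and 14.05, -0.51 ± 0.16, adjusted p = 0.137) and the tight junction protein Cldn10 (-0.56 ± 0.15, adjusted p = 0.0738). In the main fit no member was called of the lists for DNA repair (21 measured), cell cycle (18), kidney injury (19), cholesterol synthesis (17), ATF4 and serine synthesis (19), chaperones (17), immediate early genes (15), respiratory chain (27) and ribosomal proteins (16). Without 14 MBq replicate 3, 2 DNA repair genes were called higher and 1 injury and 1 immediate early gene lower, and likewise with the adrenal covariate. Without 0 MBq replicate 3, 1 injury and 1 cell cycle gene were called lower. The fit of 36 arrays called 1 gene higher in each of the DNA repair, respiratory chain and chaperone lists. In the DNA repair list the alkyltransferase Mgmt came nearest (1.10 ± 0.28, adjusted p = 0.0695), and in the injury list Vcam1 read 8.95, 8.46 and 9.16 against 10.29, 10.56 and 8.82 (adjusted p = 0.214).

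The 14 MBq arrays were also set against the neighbouring activities in cortex. Neither comparison called a gene in limma's fit: 0 of 10803 against 3.6 MBq, with 863 at an unadjusted p under 0.05, and 0 against 45 MBq, with 468. These comparisons share the 14 MBq arrays with the main one. For Cdkn1a the difference from 3.6 MBq was 1.75 ± 0.35 (unadjusted p = 1.54e-04, adjusted p = 0.606), and its level ranged from 7.95 to 8.53 at 3.6 MBq, 9.68 to 10.45 at 14 MBq and 10.54 to 11.09 at 45 MBq without overlap. Ccng1 had the smallest p-value against 45 MBq, with a difference of -0.83 ± 0.14 (adjusted p = 0.207), from 12.71 to 12.90 at 14 MBq against 13.61 to 13.65 at 45 MBq. Tmtc4, named for having the smallest p-value against 3.6 MBq, differed by -1.05 ± 0.16 (adjusted p = 0.114). Leaving out 3.6 MBq replicate 1 gave 483 calls against that activity. Some genes stood apart from 0 MBq at every activity: Angptl4 lay between 11.15 and 12.73 on the 15 arrays at 1.3 to 140 MBq and at most at 10.02 at 0 MBq, Per1 at 9.85 or more against at most 9.58, and Arntl at 5.83 or less against at least 6.44. So did the p53 targets Ccng1, at 11.95 or more against at most 11.62, and Ephx1, at 10.14 or more against at most 9.91. Cdkn1a did not, as its levels at 3.6 MBq lay within its range at 0 MBq. All these genes were called at 14 against 0 MBq, and each activity was set against the same arrays at 0 MBq. The share of all genes that stood apart in this way was not computed. Whether the separation belongs to these genes or to the 0 MBq arrays was therefore not tested.

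**Figure D5:**
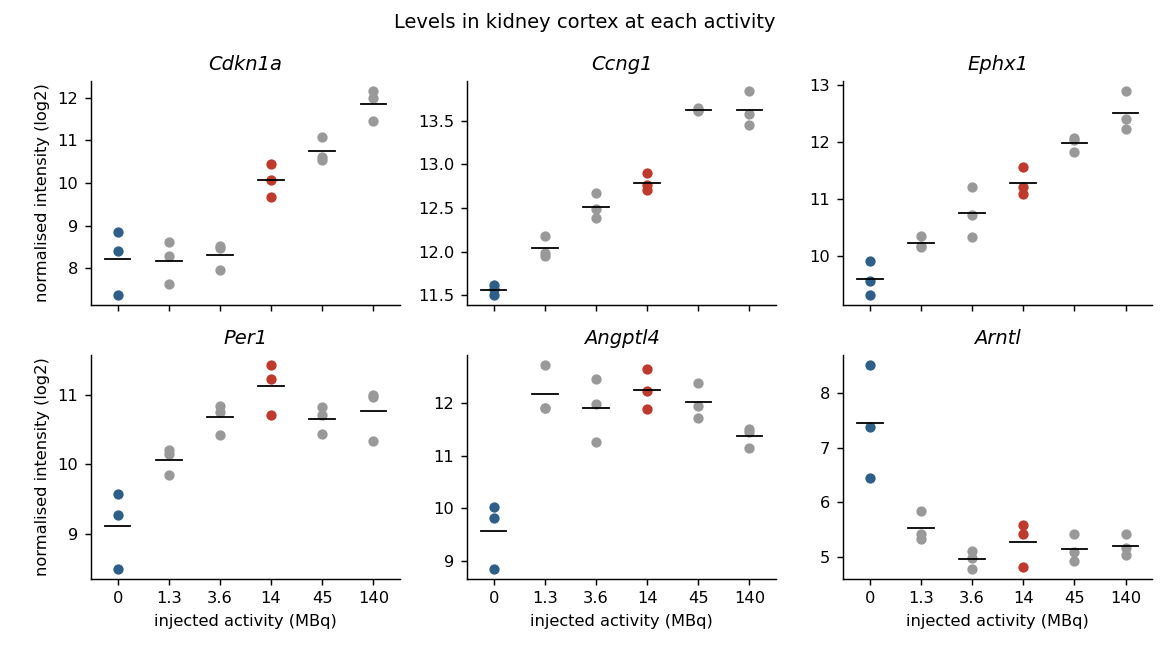
Normalised log2 intensity (vertical axes) of 6 genes on the 18 cortex arrays by injected activity in MBq (horizontal axes, evenly spaced groups); points are arrays, lines the means of 3, red is 14 MBq and blue 0 MBq. Cdkn1a lies between 7.38 and 8.86 at 0 MBq, at 9.68 or more at 14 MBq and at 11.45 or more at 140 MBq. Angptl4, Per1, Ccng1 and Ephx1 are higher and Arntl lower in every injected group than at 0 MBq. The genes shown were called at 14 against 0 MBq, and the share of all genes with such a separation was not computed.

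In medulla at 14 MBq, measured in a fit of all 36 arrays, 167 of 11471 genes were called against 0 MBq (1.46%, with 88 up, 0.767%, and 79 down, 0.689%). The same fit called 524 genes in cortex (4.57%). Of the 148 cortex genes 72 were also called in medulla in the same direction, 41 up and 31 down. That is 48.6% of the cortex genes and 43.1% of the medulla genes. All 148 had the same sign in medulla, but the share of all genes with the same sign was not computed. The deviations of cortex and medulla arrays with the same activity and number from their group means were correlated over genes. The correlations were 0.143 to 0.272 at 14 MBq and 0.613 to 0.659 at 0 MBq, so the tissues cannot be taken as independent samples. The difference between the tissues' responses, tested as an interaction, passed for 0 of 11471 genes in limma's fit, with 298 at an unadjusted p under 0.05. Pck1 was 3.85 higher in medulla (adjusted p = 0.00712), Cyp24a1 3.26 (adjusted p = 0.0170) and Per1 1.84. The genes called as risen in cortex had a median of 1.30 there and 1.04 in medulla, and the fallen genes -1.31 and -0.86. As these genes were chosen by their cortex difference, their medians do not compare the sizes of the 2 responses. Plvap (-0.38, adjusted p = 0.493) and Ptpro (-1.20, adjusted p = 0.228) were not called in medulla, and their interaction did not pass the test.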

How the data were processed

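Total RNA of fresh-frozen kidney tissue was hybridised to Illumina bead arrays, per the labels. The authors deposited linear probe intensity values without normalisation and, beside each, a detection p-value, per the file headers; a second deposited table, whose normalisation the labels and headers do not name, served as an alternative. Of 25697 probes 23974 carried 1 gene symbol, 0 several and 1723 none. The neqc function of limma (version 3.58.1, in R 4.3.3) corrected the background, added 16 as offset, quantile-normalised all 36 arrays and returned log2 values; tables were joined with the data.table package in version 1.17.8 and figures drawn with matplotlib 3.10.9 under Python 3.11.15. A probe was kept with a detection p under 0.05 on at least 3 cortex arrays, and each gene was read by its probe with the highest mean, which gave 10803 genes. Of 53 other probes of called genes 46 had the same sign and 14 were called.

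The 18 cortex arrays in 6 groups were fitted with limma's lmFit and eBayes (12 residual degrees of freedom), p-values were adjusted over all genes and the threshold was 0.05. The interaction used 36 arrays (24 residual degrees of freedom). A gene undetected on all arrays of a group has a lower bound of its fold, from the lowest signal among detected probes of each array. The fit was tested on simulated arrays with independent noise for each gene and no outlying array. It called 59 of 67 simulated 4-fold changes, 32 of 67 2-fold changes and 5 of 66 1.5-fold changes. Of 10603 unchanged genes 5 were called. A list without calls may therefore still hold changes, including some of 4-fold. Tgtp1 of the interferon list, with widely spread controls, differed by more than that without a call. The number of arrays limits the precision.

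The comparison, the 36 gene lists and the members named were chosen with earlier results of these data known. Named genes are the 15 largest rises and falls among called genes whose groups do not overlap, up to 6 called and 2 uncalled members of each list with the smallest p, Cdkn1a, Lrp2 and Sstr2, called members of 4 lists with a promoter, and the markers of an array whose list level exceeds the next array's by over 1; any other is said to be named after its values were seen or marks the tissue. Same-numbered cortex arrays at 14 and 0 MBq had correlations of 0.011, 0.179 and -0.082 between their deviations, and the numbers were not taken as pairs. Those between cortex and medulla were 0.143 to 0.272 at 14 MBq and 0.613 to 0.659 at 0 MBq. The labels do not say whether a number marks the same animal in both tissues, and differently numbered arrays of the tissues were not compared. Alternatives were other normalisations, filters, thresholds, fits, a replicate block, array weights, the adrenal level as a covariate and each array left out.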

Additional observations from a re-analysis of the deposited data

How the results depend on the processing

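The 148 calls at 14 against 0 MBq became 80 with median scaling, 90 without the detection filter, 17 at an adjusted p under 0.01 and 1.5-fold, 0 in a fit of the 6 arrays alone (1119 at an unadjusted p under 0.05), 524 in a fit of all 36 arrays, 710 with array weights and 436 with the adrenal level as covariate, and ranged from 24 to 348 with 1 array left out. With the replicate number as a block, although the numbers were not taken as pairs, there were 82, 77 of them shared with the 148. The split was 38 up and 42 down with median scaling. Without both 0 MBq replicate 1 and 14 MBq replicate 3 there were 163, of which 75 were among the 148. Against 3.6 MBq, array weights gave 1490 calls in place of 0, and leaving out 1 array gave 0 to 483. Against 45 MBq there was 1 call with the deposited normalisation, 1 without background correction and 5 with array weights. The interaction kept 0 calls under every alternative run, and blocking by activity and replicate number across the tissues, added after the data were seen, gave 0 with 478 at an unadjusted p under 0.05. Among single genes Cd36 alone changed sign, to -0.0204 with the adrenal covariate, and was called under neither. With 3 arrays a group, a gene near background has only a bound.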

Other observations

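The lists below had no called gene in the main fit and are given by their counts and levels. Of 19 kidney injury genes 17 had a difference below 0, with a median of -0.55, and their level was highest on 0 MBq replicate 2 (1.42) against -0.32 to 0.27 on the other 5 arrays. Of 27 respiratory chain subunits 23 had a difference above 0, with a median of 0.16, while 16 ribosomal protein genes had a median of -0.05. Over all 10803 genes 5362 had a difference above 0 and 5441 below 0. The urothelium and papilla list had a median of 0.73, and its level was 1.04 on 14 MBq replicate 3, the array with adrenal transcripts, and between -0.65 and -0.34 on the other 5. The serine synthesis and ATF4 list, with a median of 0.48, was highest on 14 MBq replicate 1 (0.68).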
